A study of Mus musculus with 24 samples.

Results

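The 85 genes described here encode the proteins of the mouse cytoplasmic ribosome, 52 of the large subunit and 33 of the small subunit. They were chosen by name alone. A gene entered when its symbol on the array was Rpl or Rps followed by a number, with or without a suffix, or was Rpsa, Rplp0, Rplp1 or Rplp2, and kinases of the Rps6k family were left out. These genes had 184 probes, of 37005 named genes and other features with 56605 probes on the array. RNA came from 24 pools of frozen expanded blastocysts, the mouse embryo just before it implants, and each pool had its own one-colour Agilent array. Every pool bears 1 of 6 codes, HC1 to HC6, and each code has 4 pools of 15 embryos (20 embryos in HC6, where pool size and code cannot be told apart). The series title names activation of estrogen receptors at the cell membrane and bisphenol A, an industrial chemical with estrogenic activity. The labels name no strain, treatment, dose or control for any code, and each code was therefore compared with the others. No label says that the pools of a code came from separate animals, so p-values measure the spread between pools.

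Ribosomal proteins assemble with ribosomal RNA in the nucleolus, and each ribosome needs nearly all of them in equal number. Their mRNAs are controlled together, mainly in translation: most begin with a run of pyrimidines at the 5′ end (the TOP motif), through which mTORC1 signalling sets how strongly they are translated. In the preimplantation embryo, synthesis of new ribosomes begins after the embryonic genome is switched on, and the blastocyst makes them at a high rate. An array of total RNA measures the amount of each mRNA relative to the rest of the array, not its translation.

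The promoter sequences show where a pyrimidine run lies at the start of some of these genes and is missing in others. The RefSeq promoter table (GRCm38.p6) was matched for 64 of the 85 genes. Printed are 40 bases before to 20 bases after the annotated start, read in the direction of the gene, for Rps18, which had the smallest p over conditions, Rpl13a, one of the 8 genes of smallest p, Rpl7a, whose probes disagreed, Rpl34, which varied unlike most other members, Rplp2 of the P stalk and Rps6, the target of S6 kinase. Rpl22 with Rpl22l1 and Rpl39 with Rpl39l are parent genes and their paralogs. Rpl10l is a paralog without introns in its coding sequence. Capitals mark a run of at least 8 pyrimidines (C or T) that touches the window from 5 bases before to 10 bases after the start.
Rps18, chr17:33955646-33955705, minus strand: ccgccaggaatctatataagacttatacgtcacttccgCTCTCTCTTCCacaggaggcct
Rpl13a, chr7:45128726-45128785, minus strand: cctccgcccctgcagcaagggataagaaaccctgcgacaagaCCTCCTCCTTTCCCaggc
Rpl7a, chr2:26910767-26910826, plus strand: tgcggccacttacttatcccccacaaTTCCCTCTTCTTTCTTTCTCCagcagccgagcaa
Rpl34, chr3:130730318-130730377, minus strand: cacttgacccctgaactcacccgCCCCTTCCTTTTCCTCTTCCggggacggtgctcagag
Rplp2, chr7:141447611-141447670, plus strand: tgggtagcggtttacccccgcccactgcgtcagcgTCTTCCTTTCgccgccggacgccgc
Rps6, chr4:86857348-86857407, minus strand: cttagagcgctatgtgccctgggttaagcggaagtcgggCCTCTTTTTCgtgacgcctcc
Rpl22, chr4:152324396-152324455, plus strand: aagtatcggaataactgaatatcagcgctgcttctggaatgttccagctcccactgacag
Rpl22l1, chr3:28805468-28805527, plus strand: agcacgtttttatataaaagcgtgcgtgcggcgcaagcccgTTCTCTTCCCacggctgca
Rpl39, chrX:37085203-37085262, minus strand: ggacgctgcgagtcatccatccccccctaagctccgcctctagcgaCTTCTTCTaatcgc
Rpl39l, chr16:10170188-10170247, plus strand: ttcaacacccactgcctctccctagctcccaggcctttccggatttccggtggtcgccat
Rpl10l, chr12:66284382-66284441, minus strand: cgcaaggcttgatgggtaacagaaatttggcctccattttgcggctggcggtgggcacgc
In Rpl22, Rpl39l and Rpl10l no run of that length touches the window, and the longest that does has 5, 7 and 4 bases. A longer run printed for Rpl39l lies upstream of the window and is not marked.

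Over the 76 promoters of the 64 genes, 26 (34.2%) had such a run at the start, against 11.3% of all 32851 promoters of the table. The letters CCGGAAG, the core of the site of ETS-family factors such as GABP, were found within the 300-base promoters of 26 genes, in 35.5% of the members' promoters and 8.86% of all promoters. The letters AAGATGGC, the core of the YY1 site, were found in 6 genes, in 10.5% of members' promoters and 2.75% of all. The letters TATAAA were in 9.21% of members' promoters and 13.6% of all. Both strands were searched for each of the 3 strings, CCGGAAG and AAGATGGC share the letters AAG and can overlap, and a match describes the sequence and is neither a site nor a cause. All promoters of a gene were counted, and annotated starts can lie some bases away from the true start.

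Nearly all ribosomal protein genes were measured in every pool. A probe was kept when its signal was well above the local background on at least 4 of the 24 arrays. Of the 184 probes 176 were kept, and 174 of them were above background on all 24 arrays. The kept probes cover 83 genes, 50 of the large and 33 of the small subunit. The other 2 genes were Rpl37, whose single probe was above background on 2 arrays, and Rpl3l, the striated-muscle paralog of Rpl3, whose single probe was above background on 1 array. No spot was saturated. The brightest kept probe stood for its gene, and a level is the log2 of the processed signal minus the 75th percentile of its array. Between genes these levels also reflect the probe, so they were compared only between arrays.

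The pools carried the markers of their label. All 6 epiblast markers, all 6 trophectoderm markers and all 4 primitive endoderm markers were above background on all 24 arrays. Of 8 markers of cumulus and granulosa cells 1 was above background on all 24 arrays and 4 were above it on none, and for 6 oocyte markers the counts were 1 and 2. Of 5 blood markers 1 was above background on all 24 arrays and 1 on none. Between 38.6% and 49.7% of spots per array were well above background. Precision is limited by the number of arrays.

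No ribosomal protein gene passed the test for a difference among the 6 conditions. The F-test of limma, which asks whether any condition mean differs, called 0 of 83 members at an adjusted p under 0.05 and 0 of all 18448 genes tested (0%). At an unadjusted p under 0.05 it counted 0 of 83 members and 387 of all genes (2.1%). The smallest F-test p of a member was 0.221, for Rps18, with an adjusted p of 0.9998 in limma. In the 15 pairs of conditions 0 of 1245 member tests passed the adjusted threshold, against 0 of 276720 over all genes (0%), and 4 member tests had an unadjusted p under 0.05, against 7867 over all genes (2.84%). These 4 were Rpl17 between HC1 and HC4, and Rpl36, Rps14 and Rps18 between HC1 and HC5. Without HC5 replicate 4, the HC5 difference of Rpl36 from the mean of the other 5 conditions fell from 0.17 to 0.057. For Rps14 it fell from 0.10 to 0.023 and for Rps18 from 0.18 to 0.10. In each comparison of bulk pools, fewer cells of a type and less RNA per cell cannot be told apart.

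The measurements set narrow limits on the condition differences. Against the mean of the other 5 conditions, the median standard error of a member's difference was 0.083 on the log2 scale, and over all genes it was 0.15. In each of the 6 conditions, the 95% interval of the difference stayed inside a 1.5-fold change, up or down, for 83 of 83 members. Within the tighter limit of 1.3-fold it held between 77 members (HC1, 92.8%, against 44% of all genes) and 82 members (HC4, 98.8%, against 43.6%).

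**Figure D1:**
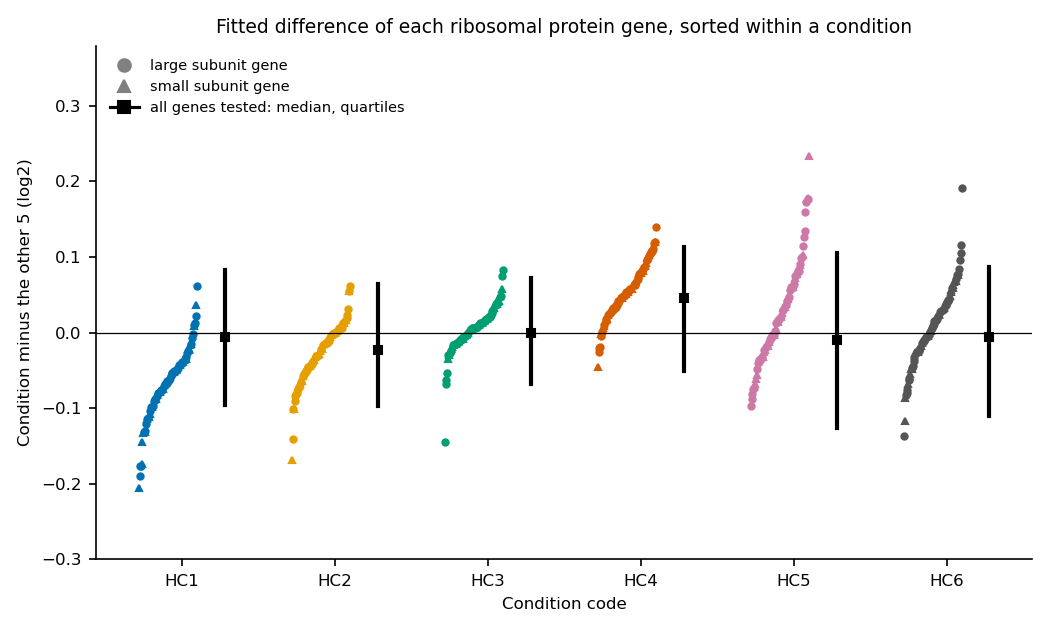
Difference of each of the 83 ribosomal protein genes in a condition from the mean of the other 5 conditions, in log2 units, with 1 point per gene sorted within each condition (circles for the large and triangles for the small subunit) and the median and quartiles of all 18448 genes in black. In HC1, 77 of 83 genes lie below 0 while the median of all genes is near 0, and in HC4, 77 lie above 0 beside an all-gene median of 0.046.

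In HC1 most ribosomal protein genes had slightly lower levels than in the other conditions, by amounts that did not pass the test for any gene. The difference was below 0 for 77 of 83 members and above 0 for 6, against 52.2% and 47.8% of all genes, and its median was -0.064 over the members and -0.0063 over all genes. At an unadjusted p under 0.05, HC1 counted 2 members, Rps14 and Rpl17, against 590 of all genes (3.2%). The adjusted test called 0 members and 0 of all genes (0%). In HC1, 3 of 6 epiblast markers (median -0.0045), 4 of 6 trophectoderm markers (-0.012) and 0 of 4 primitive endoderm markers (0.10) were below 0, and their part in the members' shift was not tested. The direction was negative under each of the other scalings, but smaller: the median was -0.020 after quantile normalization and -0.018 in the authors' values, with 23 and 24 members above 0. Leaving out HC1 replicate 2, whose members were lowest of the 24 arrays, reduced it to -0.033. Within the 3 slides the median was -0.14, -0.034 and -0.0069, and within the 2 array rows of the slides it was -0.086 and -0.042.

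Rps14, a small-subunit protein of the platform, had levels of 8.45, 8.68, 8.996 and 8.85 in HC1 replicates 1 to 4. In HC4 the pools lay between 8.93 and 8.97, and in the other conditions between 8.78 and 9.24. The lowest HC1 pools stood below every other pool and the highest lay among them. The difference from the other 5 conditions was -0.21 (SE 0.088, n = 4 against 20, limma adjusted p of 0.9998).

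Rpl17, a large-subunit protein near the exit of the peptide tunnel, had levels of 6.85, 6.61, 6.87 and 7.03 in HC1. Its levels in HC4 were 7.16, 7.13, 7.14 and 7.03, so the HC1 and HC4 pools met only at their edge. Its differences were -0.19 (SE 0.084) in HC1 and 0.14 in HC4, with limma adjusted p of 0.9998 and 0.998.

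Rps18, a small-subunit head protein, had levels of 10.27, 10.22, 10.47 and 10.43 in HC1 and of 10.55, 10.60, 10.54 and 10.87 in HC5. Every HC5 pool lay above every HC1 pool, while the pools of the other conditions spanned both, from 10.27 to 10.72. The differences were -0.17 in HC1 (SE 0.085) and 0.18 in HC5, and neither passed in limma, at adjusted p of 0.9998 and 0.875. Without HC5 replicate 4 the difference in HC5 was 0.10.

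The other genes of small F-test p were lower in HC1 or HC2 by similar amounts. Rpl36 read 8.08, 8.06, 8.47 and 8.41 in HC1, a difference of -0.18. Rpl13a, also known as a translational repressor of inflammatory mRNAs outside the ribosome, read 7.95, 7.77, 7.98 and 8.12 in HC1, also a difference of -0.18. In both genes some HC1 pools overlapped the other conditions. Rps7, a small-subunit protein that can bind Mdm2, differed by -0.13 in HC1. Rpl11 read 9.52, 9.69, 9.62 and 9.91 in HC2, a difference of -0.14, and Rps4l read 7.73, 7.31, 7.42 and 7.72 there, a difference of -0.17. None passed the adjusted test.

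In HC4 the members were mostly slightly higher, and so were most genes on the array. The difference was above 0 for 77 of 83 members and below 0 for 6, against 65% and 35% of all genes, and its median was 0.054 over the members and 0.046 over all genes. At an unadjusted p under 0.05, HC4 counted 0 members and 349 of all genes (1.89%), and the adjusted test called 0 of each (0%). In HC4, 6 of 6 epiblast markers (median 0.14), 4 of 4 primitive endoderm markers (0.16) and 3 of 6 trophectoderm markers (0.019) were above 0, with 0 called. Their part in the members' shift was not tested. The direction in HC4 was lost when arrays were scaled on probes detected on all arrays (39 of 83 members above 0), and the median was 0.016 after quantile normalization. Of the 4 HC4 arrays 3 lay in row 1 of their slide, and with row in the fit the median was 0.027. Without HC4 replicate 2 the median was 0.030, and without replicate 4 it was 0.086. Rpl17 (0.14) and Rpl27 (0.12, SE 0.098) had the highest differences, and Rpsa (-0.046) and Rpl10 (-0.026) the lowest.

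The remaining conditions showed smaller median differences, whose sign turned when a single pool was left out. In HC2, 62 members were below 0 and 21 above (58.2% and 41.8% of all genes). The median was -0.022 over the members and -0.023 over all genes. Under each of the other scalings the members' median in HC2 was positive, from 0.0021 to 0.011. In HC3, 49 members were above 0 and 34 below (49.9% and 50.1% of all genes), with a median of 0.0064 (-0.00023 over all genes). In HC5 the counts were the same, 49 and 34 (47.7% and 52.3% of all genes), with a median of 0.019 (-0.0097 over all genes). In HC6, 46 were above 0 and 37 below (48.2% and 51.8% of all genes), with a median of 0.0082 (-0.0056 over all genes). With a pool left out, the members' median turned to 0.022 in HC2 without replicate 3 and -0.018 in HC3 without replicate 1. It turned to -0.018 in HC5 without replicate 2 and -0.039 in HC6 without replicate 2. Each counted 0 members at an unadjusted p under 0.05, against 415 of all genes in HC2 (2.25%), 292 in HC3 (1.58%), 1012 in HC5 (5.49%) and 545 in HC6 (2.95%). The adjusted test called 0 of all genes in each (0%).

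The spread between pools of a condition was as large as these shifts. The median deviation of the members from their 24-array means had an SD over the 4 pools of a condition between 0.066 (HC5) and 0.13 (HC2), with 0.072 for HC1 and 0.073 for HC4. The lowest arrays were HC1 replicate 2 at -0.16 and HC2 replicate 3 at -0.16, and the highest were HC6 replicate 2 at 0.15 and HC4 replicate 2 at 0.12. HC2 and HC6 thus each held arrays from both ends of the range.

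**Figure D2:**
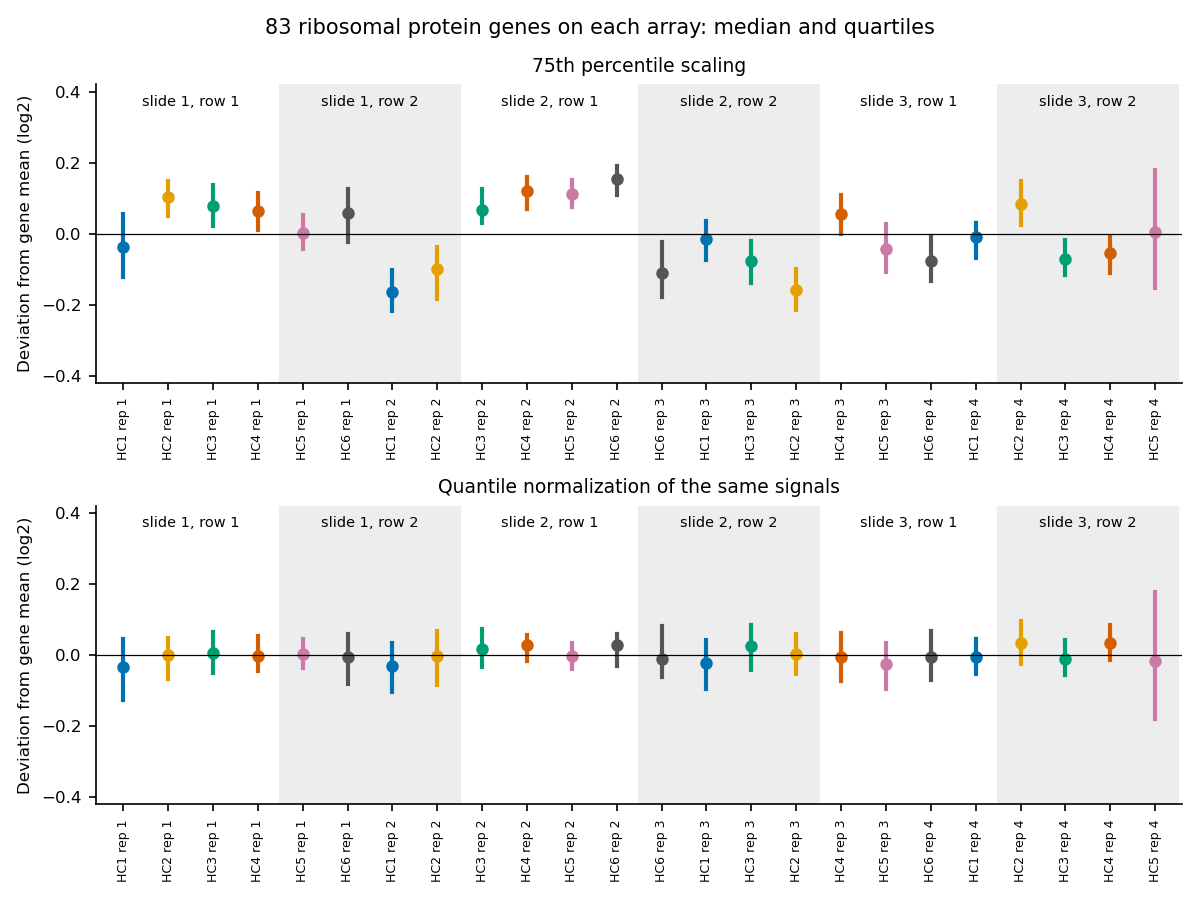
Deviation of the 83 ribosomal protein genes from their own 24-array means (log2) on each of the 24 arrays, which are ordered by slide and row and coloured by condition; points are medians and bars the quartiles over genes, under the 75th percentile scaling (top) and quantile normalization (bottom). The medians run from -0.16 in HC1 replicate 2 to 0.15 in HC6 replicate 2 at the top and from -0.034 to 0.036 at the bottom, and HC5 replicate 4 has the longest bar in both.

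As single genes the members varied less between arrays than the typical gene, as did other strongly detected genes and genes of related function. The SD of a member's level over the 24 arrays had a median of 0.13, against 0.27 over all genes tested, and it was below that all-gene median for 81 of 83 members. The same median was 0.14 for mitochondrial ribosomal proteins, 0.14 for translation factors, 0.16 for ribosome assembly genes and 0.16 for the other genes among the brightest 10% of those tested. With normexp and quantile normalization it was 0.098 for the members and 0.15 for all genes. The ratio of a member's highest to its lowest array ran from 1.22-fold to 2.52-fold with a median of 1.39-fold, and it was under 2-fold for 80 of 83. The smallest within-condition SDs belonged to Rpl3, Rpl9, Rpl10a, Rpl7 and Rps6. Rpl3, at the peptidyl transferase centre, read 8.66 to 8.95 over the 24 arrays, with a median of 8.80, and Rps6 read 7.61 to 8.03, with a median of 7.86. The largest belonged to Rpl10l, Rpl39l, Rpsa, Rps15 and Rpl7a. Rpsa, the laminin receptor protein of the small subunit, read 8.74 to 9.86, and Rps15, which sits at the head and is needed to export the subunit from the nucleus, read 6.80 to 7.92. In both the highest value was HC5 replicate 4.

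The members varied together across pools under the scaling used here, and this depended on the scaling. The Pearson correlation between 2 members over the 24 arrays, which share array, scaling and depth of labelling, had a median of 0.49 over 3403 pairs, against 0.029 over all genes, and 86.8% of the member pairs were above 0. It was 0.47 within the large subunit, 0.52 within the small subunit and 0.50 between them. After quantile normalization the median was 0.033, and in the authors' values it was 0.030, while the array medians of the members shrank from a range of -0.16 to 0.15 to a range of -0.034 to 0.036. The 1765 other genes among the brightest 10% of those tested had a median correlation of 0.23, and 0.0021 after quantile normalization. Their array medians had the same sign as those of the members on 19 of 24 arrays. The part of the scaling in the shared variation was not tested further, and no shared control of these genes is read from it.

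Some members did not move with the rest even under the scaling used here. The median correlation with the other members was -0.24 for Rpl10l, -0.15 for Rpl34, -0.046 for Rpl7l1, -0.0073 for Rpsa, 0.038 for Rps9 and 0.10 for Rpl18. The probes used for Rpl10l, Rpl34, Rps9 and Rpl18 have 55% G and C, that of Rpsa 53.3% and that of Rpl7l1 46.7%. Rpl22, also read by a probe of 55%, had a median correlation of 0.59. The part of base composition in these correlations was not tested. Rpl34, a large-subunit protein, read 7.52 to 8.19 over the arrays. It was lowest in HC1 replicate 1 and highest in HC6 replicate 1. Rpl10l and Rpl7l1 are paralogs described below.

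The place of an array on its slide moved with the members' levels on slides 1 and 2, and not on slide 3. Each of 3 slides carried 8 arrays in 2 rows of 4, as the array numbers in the deposited file names give them. All 6 codes were spread over all 3 slides and both rows. The members' array medians ran from -0.076 to 0.15 in row 1, with a median of 0.066. In row 2 they ran from -0.16 to 0.084, with a median of -0.062, so that the rows overlapped. By slide, the medians of row 1 and row 2 were 0.071 and -0.049 on slide 1 and 0.12 and -0.093 on slide 2. On slide 3 they were nearly equal, at -0.026 and -0.024. In a fit with condition, slide and row, a choice made after seeing the data, limma called 13 of 83 members between rows (15.7%), against 2140 of 18448 genes (11.6%). All 13 were lower in row 2. Over all members 70 of 83 were lower in row 2, against 64.5% of all genes, with a median of -0.091 over the members and -0.072 over all genes.

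The 13 genes that differed between rows cover both subunits. Among them were Rpl7a, Rpl14, Rpl22l1, Rpl36al, Rpl39l, Rplp1, Rps3a1, Rps4l, Rps15a, Rps19, Rps27a and Rps27l. The level of Rps27a, made as a fusion with ubiquitin, was 9.93 ± 0.084 (SD, n = 12) in row 1 and 9.71 ± 0.10 in row 2, a difference of -0.21 (SE 0.051, limma adjusted p of 0.0218). Its other kept probe, far dimmer and of 55% G and C, differed by 0.20 (limma adjusted p of 0.393 over probes). The 2 probes correlated at -0.22. Rpl39l had the largest difference, -0.33 (SE 0.093, limma adjusted p of 0.0351). In the other scalings all 13 stayed lower in row 2, with medians of -0.14 to -0.16, but only 1 of them passed with normexp and quantile normalization and 0 of them in the other 3 scalings. The members called between rows then numbered 0 when arrays were scaled on probes detected on all arrays (5.18% of all genes were called) and 0 after quantile normalization (4.77%). With normexp and quantile normalization 4 were called (7.34%), of which 1 was lower in row 2, and in the authors' values 3 were called (7.09%), of which 0 were lower. Most members called in these scalings thus differed in the opposite direction, and the median over all members lay between -0.0088 and 0.0041.

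The base composition of the probes moved with the row difference. Of the 31 members' probes with under 40% G and C, 30 were lower in row 2, with a median difference of -0.18, and 8 of them were called, where 81.8% of all such probes on the array were lower and 11.6% were called. Of the 93 probes with 40% to under 50%, 76 were lower, with a median of -0.084, and 6 were called, against 64.1% lower and 6.74% called of all such probes. Of the 52 probes with at least 50%, 25 were lower and 27 higher, with a median of 0.0022 and 0 called, where 37.2% of all such probes were lower and 6.56% were called. The probes used for the 13 called genes had 35% to 45% G and C with a median of 36.7%, and those of the other 70 genes a median of 45%. The gap between low-GC and high-GC probes was present under each scaling: the median row difference of the 19 members with a probe under 40% lay between -0.18 and -0.063, and that of the 23 members with at least 50% between -0.029 and 0.077.

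**Figure D3:**
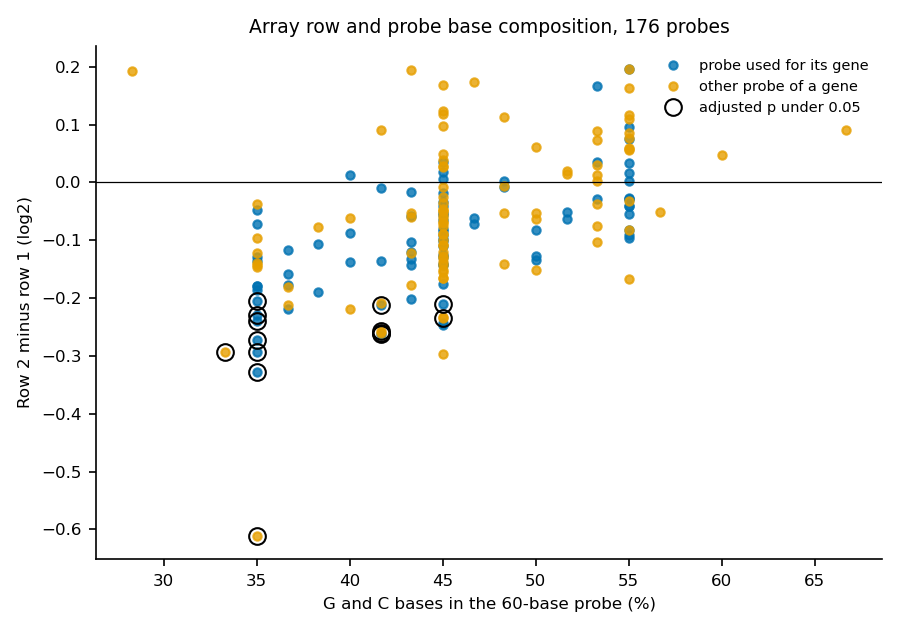
Row 2 minus row 1 difference (log2) of the 176 kept ribosomal protein probes against the G and C content of the probe in percent, in blue for the probe used for its gene and orange for others, with circles around those of adjusted p under 0.05. Of the probes under 40%, 30 of 31 lie below 0, and those of at least 50% lie on both sides; the lowest point is an Rpl13 probe not used for its gene, at -0.61.

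Probes of one gene gave unlike row values in some genes, which were picked here after their values were seen. For Rplp1 of the P stalk, Rps3a1 of the small subunit and Rpl7a of the large subunit, 1 probe lies inside the coding sequence and another crosses the stop codon into the end of the mRNA. The sequences printed are the full 60-base coding probe and, for the probe across the stop, only the bases up to the stop codon, which stands in capitals. Positions are those of the array's annotation on mouse mm9 and enclose the whole probe, including an intron where one is crossed.
Rplp1, coding, chr9:61761276-61761701, minus strand: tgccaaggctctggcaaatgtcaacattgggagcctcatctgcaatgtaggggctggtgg
Rplp1, across the stop, chr9:61761086-61761145, minus strand: ggtctttttgacTAA
Rps3a1, coding, chr3:85943041-85943100, minus strand: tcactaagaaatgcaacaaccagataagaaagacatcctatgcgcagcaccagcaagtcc
Rps3a1, across the stop, chr3:85941875-85941934, minus strand: ccgccagtccaagaatcagtgTAA
Rpl7a, coding, chr2:26767937-26768221, plus strand: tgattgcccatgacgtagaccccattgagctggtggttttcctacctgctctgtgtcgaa
Rpl7a, across the stop, chr2:26768759-26768818, plus strand: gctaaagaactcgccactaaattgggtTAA

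The coding probe of Rplp1 has 55% G and C. It read 8.11 to 8.48 in row 1, with a median of 8.32, and 8.18 to 8.54 in row 2, with a median of 8.37. The probe across its stop codon has 35% G and C and read 9.97 to 10.37 in row 1, with a median of 10.22, and 9.84 to 10.11 in row 2, with a median of 9.96. The row difference was 0.057 by the coding probe (limma adjusted p of 0.567 over probes) and -0.20 by the probe across the stop (0.0293). Over the 24 arrays the probes correlated at -0.12.

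Rps3a1 and Rpl7a gave the same picture. The coding probe of Rps3a1 (45%) had medians of 6.89 in row 1 and 6.97 in row 2, and the probe across the stop (35%) 8.74 and 8.46. Its row differences were 0.048 and -0.23 (limma adjusted p of 0.583 and 0.0492), with a correlation of -0.33 between probes. The coding probe of Rpl7a (51.7%) had a median of 8.38 in row 1 and 8.37 in row 2, and the probe across the stop (35%) 8.71 and 8.47. Its row differences were 0.015 and -0.27 (limma adjusted p of 0.863 and 0.0474), with a correlation of -0.054. In all 3 genes the row difference passed the test by the probe across the stop and not by the coding probe. That does not show that the probes of a pair differ. The direct comparison given below passed in 0 members. For Rps3a1 it used another probe pair (0.12, SE 0.060, limma adjusted p of 0.226), and the printed pair was not compared. Rps3a1 had other kept probes. Another of 35% differed by -0.15 between rows (limma adjusted p of 0.0829), and another of 45% correlated at 0.53 with the probe across the stop.

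**Figure D4:**
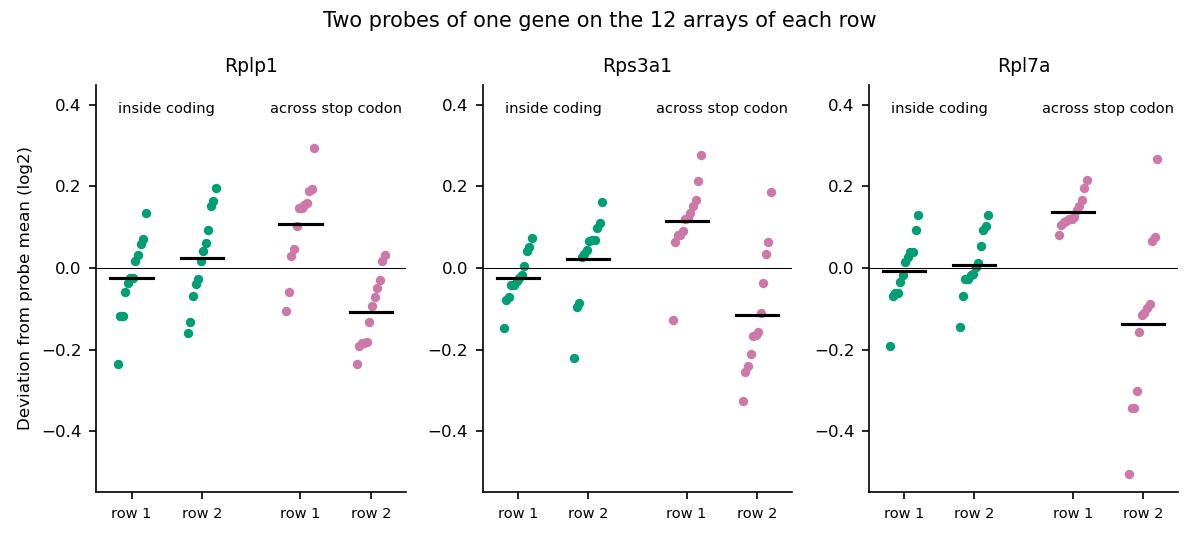
Deviation from the probe's own 24-array mean (log2) of the coding probe (green) and the probe across the stop codon (pink) of Rplp1, Rps3a1 and Rpl7a, with 1 point per array, sorted within the 12 arrays of each row, and a bar at the row mean. The row differences were -0.20, -0.23 and -0.27 by the probes across the stop and 0.057, 0.048 and 0.015 by the coding probes.

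Over all members with several kept probes, the agreement between probes was lower where their base composition differed. The 60 such genes give 135 probe pairs. In the 91 pairs whose G and C content differed by under 10 percentage points the median correlation over arrays was 0.62, and 4 were below 0. In the 44 pairs with a gap of at least 10 points it was 0.46, and 11 were below 0. In 30 of the 41 such pairs with known positions, the probe of lower G and C content lay nearer the 3′ end, so that composition and place in the mRNA cannot be told apart. In the 24 genes with such a gap, the difference of the high-GC probe minus the low-GC probe was higher in row 2 in 17. Its median was 0.085, and 0 passed in limma. Among all 2390 genes with such probes 73.5% were above 0, with a median of 0.14, and 55 were called (2.3%). The smallest adjusted p among the 24 members was that of Rplp1 (0.26, SE 0.073, limma adjusted p of 0.0576), and those of Rps4x (0.30, 0.0663) and Rpl7a (0.29, 0.0838) were also under 0.1. By condition, this difference passed in 0 members at an adjusted or an unadjusted p under 0.05 in the F-test, and 64 of all 2390 genes had an unadjusted p under 0.05.

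The members' extremes in HC5 came from 1 array. On HC5 replicate 4 the deviations of the 83 members had an SD of 0.28, against 0.073 to 0.14 on the other 23 arrays. Over all genes tested this array was also the widest, with an SD of 0.66 against 0.37 to 0.55. The departure was thus not particular to the members. The highest value of 18 members and the lowest value of 14 were on it. Its 75th percentile of signal, 47.3, was the lowest of the 24 arrays, and 39.1% of its spots were well above background. Of the members' 176 kept probes, the 52 with at least 50% G and C stood on it 0.38 above the 31 with under 40% in median deviation. The part of signal and base composition in these values was not tested.

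Members high on that array included Rps15 at 0.87 above its 24-array mean, Rpsa at 0.77, Rpl28 at 0.62 and Rpl13a at 0.54. Those low on it included Rpl7a at -0.51, Rps15a at -0.47, Rpl14 at -0.46, Rpl39l at -0.46 and Rpl5 at -0.45. Rps15 read 6.997, 7.01, 7.05 and 7.92 in HC5, so its difference of 0.23 (SE 0.13, limma adjusted p of 0.875), the highest of any member, rests on the last pool. Without that array it was 0.0082. Rpsa read 8.96, 9.03, 9.10 and 9.86, and its difference of 0.18 became -0.029 without it. Over the members, differences beyond 0.1 in HC5 numbered 11 with the array and 4 without it, and 33 of 83 changed sign.

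By their place in the ribosome, the groups of members gave the same picture as the whole. The P stalk, which recruits the translation factors to the ribosome, consists of Rplp0, Rplp1 and Rplp2, with Rpl12 at its base. All 4 were below 0 in HC1, with a median of -0.071, and above 0 in HC4, with a median of 0.065, and none passed the test. Rplp0, often used as a reference gene, read 8.57 to 9.02 over the 24 arrays, with a median of 8.83. Its condition differences ran from -0.063 in HC6 to 0.074 in HC5 (SE 0.087). Rplp2 read 9.33 to 9.92 and Rpl12 8.95 to 9.34, and in each the pools of all conditions overlapped.

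Rpl5 and Rpl11 bind 5S ribosomal RNA, and when ribosome assembly fails they can bind Mdm2 and stabilise p53. Rpl5 read 7.95, 8.04, 8.04 and 7.51 in HC5 and 7.81 to 8.18 in the other 20 pools. Its difference in HC5 was -0.088 (SE 0.080, limma adjusted p of 0.898), and 0.038 without replicate 4. Rpl11 read 9.81, 9.91, 10.01 and 9.81 in HC5, and its difference in HC2, -0.14 (SE 0.075), was its largest. Of the 8 proteins around the exit of the peptide tunnel, 8 were below 0 in HC1 and 8 above 0 in HC4, and of 14 proteins of the small-subunit head 13 were below 0 in HC1 and 13 above 0 in HC4, with 0 called in both groups.

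The paralogs can replace their parent proteins in some tissues, several of them in testis. Rpl10l, which stands in for X-linked Rpl10 in male germ cells, was the most variable member: its level ran from 0.52 to 1.86 over the arrays, a 2.52-fold range. In HC6 it read 1.09, 0.52, 1.85 and 1.82, in HC5 0.92, 1.46, 1.86 and 1.42. The pools of all 6 conditions overlapped, and the largest difference, -0.14 in HC6 (SE 0.20), was smaller than its standard error. Rpl10 itself read 10.07, 10.20, 10.14 and 10.11 in HC1, a difference of -0.13 (SE 0.076), and 10.08 to 10.50 in the other pools.

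Rpl39l, the paralog of Rpl39, read 4.41, 4.88, 5.03 and 4.87 in HC6 and 4.34, 4.88, 4.34 and 4.51 in HC3. Its differences were 0.19 in HC6 and -0.14 in HC3 (SE 0.16 in both), and neither passed. Rpl39 varied less, from 8.65 to 9.07, and its differences stayed between -0.045 and 0.049. Rpl22l1, whose level can respond to loss of Rpl22, read 5.91 to 6.62 over the arrays. Its differences ran from -0.081 in HC5 to 0.096 in HC6 (SE 0.11), and those of Rpl22 from -0.063 in HC1 to 0.063 in HC4 (SE 0.072).

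Rpl7l1, which acts in assembly of the large subunit, read 1.58 to 2.06, with its largest difference, 0.11, in HC6 (SE 0.077). Rpl36al read 6.58 to 7.13, Rps27l, a p53 target, 7.15 to 7.78, and Rps4l 7.31 to 7.88. These 3 were among the genes that differed between array rows. Their parent genes Rpl36a, Rps27 and Rps4x read 8.23 to 8.78, 8.44 to 8.84 and 7.37 to 7.94. In HC1, 5 of the 7 paralogs tested were above 0 (median 0.010), unlike most members, and 8 of 8 parent genes were below 0 (median -0.058). In HC4, 7 of 7 paralogs and 7 of 8 parent genes were above 0. No paralog or parent passed a test between conditions.

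Ribosomal protein genes have many processed copies in the genome, which probes can detect too. The array's annotation placed both Rps27 probes on chromosome 9, from 114891517, and 3 Rps29 probes on chromosome 2, between 172335003 and 172335134, whereas another Rps29 probe, not kept, lay on chromosome 12. It placed 1 of the Rpl36 probes at chrX:19448064-19448123 with the other on chromosome 17, and 1 of the Rpl13 probes at chr4:52254267-52254326 with the others on chromosome 8. The signal of these genes can include such copies, and levels of near-identical copies are uncertain.

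The lists of other genes of ribosome production and translation had small median differences too. Of 117 tested genes of ribosome assembly, 88 were below 0 in HC1 (median -0.040) and 101 above 0 in HC4 (median 0.070). Of 77 mitochondrial ribosomal proteins, made in the cytoplasm for a separate ribosome, 68 were below 0 in HC1 (median -0.060) and 72 above 0 in HC4 (median 0.086). The 51 translation factors gave 35 below 0 in HC1 (median -0.027) and 49 above 0 in HC4 (median 0.071). The same medians were -0.033 and 0.048 for 22 RNA polymerase I genes, -0.0053 and 0.049 for 34 genes from mTORC1 to S6 kinase, and 0.0084 and 0.031 for 9 genes of the Myc family. In every one of these lists 0 genes passed the F-test or a condition contrast in limma.

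The largest differences of single genes named from these lists exceeded the 0.23 of Rps15, the largest of a member. Rps6ka5, a stress- and mitogen-activated kinase, differed by 0.70 in HC1 (SE 0.27) and Mxd3, of the Myc network, by -0.63 in HC6 (SE 0.23). Ttf1, a termination factor of RNA polymerase I, differed by -0.56 in HC5 (SE 0.22) and Rrp8 by -0.31 in HC3 (SE 0.14). None passed in limma. Rps6ka5 was above background on 16 of 24 arrays, Mxd3 on 18 and Ttf1 on 23, while the probes used for all 83 members were above it on 24. The SD of Ttf1 was 0.91 in HC5 and 0.20 in the other 20 pools. Fau, which encodes the small-subunit protein eS30 fused to a ubiquitin-like protein, had a level of 9.85 ± 0.41 (SD, n = 4) in HC5 and 9.63 ± 0.12 in the other 20 pools, with a limma adjusted p of 0.875. Rack1, the signalling scaffold on the small subunit, differed by at most 0.079, in HC4 (SE 0.091). Bysl, an assembly factor of the small subunit, had the smallest F-test p of its list, 0.0427. It read 4.35 ± 0.14 in HC5 and 4.14 ± 0.13 elsewhere, a difference of 0.21 (SE 0.075, limma adjusted p of 0.875).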

How the data were processed

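Per the labels' protocols, 2 ng of total RNA from each pool was amplified, labelled with Cy3 and hybridised. Scanning software (Agilent Feature Extraction 10.10.1.1) gave the deposited intensity values. Their headers describe the deposited intensity as corrected for background within an array, with no scaling between arrays. The authors' deposited table of log2 values covers 27101 probes, with column medians of 7.00 to 7.01 and 443 missing values, and its exact normalization is not given in the sources used here. The submitters' processing notes also name limma. The other deposited columns, flags for spots above background, saturated or outlying, are per the file headers. No column of another sample was found (0 unused).

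Outlier spots were removed, log2 signals averaged per probe and each array's 75th percentile subtracted. Of the probes, 27144 passed the filter (above background on at least 4 arrays, at least 2 values per condition), giving 18448 genes by brightest probe. One limma 3.58.1 model (R 4.3.3) with 6 condition means and eBayes was fitted over all genes, with Benjamini-Hochberg adjustment at 0.05. Pairs were adjusted in one family, probe tests over all probes kept. Files were read with data.table (1.17.8), sequences with Python 3.11.15, figures drawn with matplotlib 3.10.9, and the code was tested on simulated data. Alternatives were other scalings (normexp with offset 50 and quantile normalization, quantile normalization, detected probes, the authors' values), filters, probe rules, slide, row and replicate terms, and each pool left out. Named are paralogs and parents, the 8 smallest F-test p, the 2 highest and lowest differences per condition, the 5 largest and smallest spreads, the P stalk, Rpl5, Rpl11, Rpsa, members not kept, and up to 2 genes per other list. Others are named for array row, probe pairs or HC5 replicate 4, chosen after their values were seen. Some members are counted but not reported by name here. The members and lists were chosen with earlier results of these data known.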

Additional observations from a re-analysis of the deposited data

Results flagged for a closer look

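In groups of 4 pools, 6 of 56 groups examined held a pool that stood apart from the other 3 by more than Dixon's 95% limit. The genes, many named for large differences or spreads, were each examined in the condition of their largest difference. The groups also share arrays, so a chance rate of 1 in 20 cannot be set against this count. The causes were not tested. In 3 of them the pool was HC5 replicate 4: Rps15 read 7.92 there and 6.997 to 7.05 in the other HC5 pools, Rpsa 9.86 against 8.96 to 9.10, and Rpl5 7.51 against 7.95 to 8.04. In HC1, the median deviation of the small-subunit genes was -0.16 in replicate 2 and -0.012 to 0.00077 in the others. Rps4x read 7.91 in HC6 replicate 2 and 7.65 to 7.70 in the other HC6 pools. Rpl27 read 8.70 in HC4 replicate 4 and 8.92 to 8.93 in the other HC4 pools.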

How the results depend on the processing

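In all 39 alternative settings 0 members passed the F-test, a condition contrast or a pair. In the main fit 0 of all 18448 genes passed (0%). The share over all genes was not counted in the alternative settings, so the members cannot be set against it there. The median member difference was below 0 in HC1 in all 44 settings (-0.14 to -0.0069) and above 0 in HC4 in 42 of 44, and its sign held in 33 of 44 in HC2 and HC3 and 37 of 44 in HC5 and HC6. With 1 pool left out it ranged from -0.074 to -0.033 in HC1, -0.062 to 0.022 in HC2, -0.018 to 0.033 in HC3, 0.030 to 0.086 in HC4, -0.018 to 0.047 in HC5 and -0.039 to 0.043 in HC6, and the median pairwise correlation from 0.46 to 0.57. That correlation was 0.29 when arrays were scaled on detected probes, 0.29 when they were centred on the median of all genes, 0.033 after quantile normalization, 0.029 with normexp and quantile normalization and 0.027 in the authors' values, the last 2 with the probe of a gene chosen anew on those values. Within slides, the medians that moved most were HC1 on slide 1 (-0.14), HC2 on slides 2 (-0.20) and 3 (0.11), and HC4 and HC5 on slide 2 (0.13 and 0.12). Over 1482 values of the 39 genes that the naming rule picks 5 changed sign and 0 were called: Rpl7 in HC5 to 0.0026 with the mean of probes, Rpl10l in HC6 to 0.13 without replicate 2 (-0.31 to 0.13 with 1 pool left out), Rps29 in HC6 to 0.0012 without replicate 3 (-0.11 to 0.0012), and, in HC5 without replicate 4, Rpsa to -0.029 (-0.029 to 0.27) and Rpl5 to 0.038. The causes were not tested. Row terms, centring on all genes and values within rows were chosen after seeing the data.

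By label, pools of different codes share only a replicate number, which partly follows the slide. All pools of replicate 1 were on slide 1 and all of replicate 4 on slide 3. Number and slide therefore cannot be fully told apart. Of 60 same-numbered pairs, deviations correlated at -0.32 to 0.33 with a median of -0.010, and 25 were over 0.1. With the replicate number as a block, 0 members were called (all genes were not counted) and the median in HC1 stayed at -0.064.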
